A study of Homo sapiens with 6 samples.

Results

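The BCL2 family decides whether a stressed cell permeabilises its mitochondria, and 10 of its genes are described here across TEAD4 knockdown in 2 colorectal cancer lines. They were taken by name from the 26336 named genes of the deposited tables, and all 10 were found and passed the filter on low values (an average of 1 normalized count or more). The genes fall into 7 that encode BH3-only proteins (BMF, BCL2L11, BBC3, PMAIP1, BIK, BAD and BID) and 3 that encode guardians, the anti-apoptotic proteins (BCL2, BCL2L1 and MCL1). BH3-only proteins carry a short helix that docks into a groove of the guardians, which otherwise hold the effectors BAX and BAK in check. When the guardians are occupied, BAX and BAK form pores in the outer mitochondrial membrane, cytochrome c escapes, and caspases are switched on. In colon epithelium, loss of matrix attachment, growth factor withdrawal and DNA damage each act through different BH3-only genes, and tumour cells often lean on BCL-xL and MCL-1.

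The knockdown groups were HCT116 cells and SW620 cells carrying short hairpin RNA against TEAD4 (shTEAD4, 2 libraries per line), and the controls were the same lines with the hairpin vector pLKO (1 library per line). HCT116 is an established line from a colon carcinoma, and SW620 is one from a lymph node metastasis of another. TEAD4 is a DNA-binding partner of YAP and TAZ, the effectors of the Hippo pathway, and the series asks which genes depend on it. Cells of all groups were grown in DMEM with serum and given no other treatment. Nothing in the labels tells if the paired knockdown libraries stem from independent cultures or from different hairpins, so p-values measure only the spread between these libraries, which may be technical. In such bulk RNA, fewer cells of a type and less RNA per cell cannot be told apart.

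The libraries held 15778571 to 18859715 reads on named genes. TEAD4, the targeted gene, was down to 19.2% and 19.3% of the control with HCT116 knockdown, and to 23.5% and 20.5% with SW620 knockdown. The epithelial genes KRT8, KRT18, CDH1 and EPCAM were high in all 6 libraries. VIL1, the brush border protein villin, stood at 0.91 and 0 normalized counts in the HCT116 knockdown libraries and 2.03 in the control. In SW620 it had 6070 and 4870 in the knockdown libraries and 5163 in the control. CDX2 lay between 83.4 and 416. Further epithelial markers were low, with KRT20 at most 53.7, VILL at most 40.7 and LGALS4 at most 25.6 in any library, and CDX1 was at 0 throughout. Summed markers ran from 462 to 992 normalized counts in HCT116 and from 664 to 1070.1 in SW620 for fibroblasts, where COL1A1 led in HCT116 and LUM in SW620, and from 268 to 1141 and from 190 to 312 for leukocytes, where CD68 led. The leukocyte marker PTPRC stood at 0.91 and 0 in the HCT116 knockdown libraries and 3.05 in the control, and at 0 in SW620, and the endothelial markers summed to at most 56.4 in any library.

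BMF was the only member that was lower in all 4 knockdown libraries. BMF is a BH3-only protein held by a dynein light chain, and it is known for its part in anoikis, the death of epithelial cells that lose their matrix. It had 75.5 and 84.7 normalized counts in the HCT116 knockdown libraries, against 229 in the HCT116 control. In SW620 it had 35.6 and 22.6 normalized counts in the knockdown libraries, against 108 in the control. Every knockdown library was thus below its control by a wide margin, and the knockdown and control values of a line did not overlap. Both knockdown libraries lay below the control for 31.4% of all genes tested in HCT116 and for 29.9% in SW620. As a share of its control, BMF was at 33.0% (95% counting interval 25.4% to 42.6%) and 37.0% (28.3% to 48.1%) in HCT116, and at 32.8% (21.9% to 48.2%) and 20.8% (12.5% to 33.1%) in SW620. These exact intervals rest on 83 and 79 reads against 225 in HCT116 and on 36 and 22 reads against 111 in SW620, and they cover counting error only. The gap between the SW620 knockdown libraries was 0.63 on the log2(normalized count + 1) scale. A gap of that size was reached by 13.9% of the 12387 genes with a mean of at least 50, whose median gap was 0.22. In HCT116 the gap was 0.16, a size reached by 80.5% of these genes.

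BMF had a negative fold change in each line, but the test across all genes did not call it. With both lines in 1 model the limma log2 fold change was -1.70 ± 0.37 (SE, 4 knockdown and 2 control libraries; unadjusted p = 0.00183, adjusted p = 0.935 over 18743 genes). It was -1.50 ± 0.53 in HCT116 (limma, unadjusted p = 0.0357, adjusted p = 0.828) and -1.90 ± 0.53 in SW620 (limma, unadjusted p = 0.0155, adjusted p = 1). The difference between the lines was 0.39 ± 0.75 (limma, unadjusted p = 0.621), so a difference in either direction is not excluded. DESeq2 on the whole reads, an alternative, called BMF over both lines (log2 fold change -1.71 ± 0.38, adjusted p = 0.0100), where the adjusted p ranged from 0.0100 to 1 across all alternatives. That call was lost without 5 of the 6 libraries, each left out alone, with DESeq2 adjusted p-values of 0.0911 when HCT116 knockdown library 2 was left out, 0.12 and 0.326 for SW620 knockdown libraries 1 and 2, 1 for the HCT116 control and 0.671 for the SW620 control. It was kept without HCT116 knockdown library 1 (0.0451), and the log2 fold change stayed between -1.54 and -1.90 in these fits.

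Against the background of all genes, few genes matched BMF in size and direction across the libraries. All 4 knockdown libraries lay below their controls for 1 of the 10 members, beside 11.6% of all genes tested, and above them for 0 of 10, beside 12.1%. A log2 ratio (of normalized count + 1) of at least 1 below the control in all 4 libraries was found for BMF alone among the members, beside 0.341% of the genes tested and 0.0969% (12 of 12387) of those with a mean of at least 50 normalized counts, a level that all 10 members reached. The genes most like BMF over the 4 log2 ratios (of normalized count + 1) to the own control, by Euclidean distance among 12386 genes, were PRODH, a mitochondrial proline dehydrogenase (distance 0.59), HIST1H1C, a linker histone (0.77), and TGM2, tissue transglutaminase (0.80). In HCT116 knockdown libraries 1 and 2 and SW620 knockdown libraries 1 and 2, PRODH had log2 ratios of -1.10, -1.26, -1.63 and -1.93. These measures are a description over 4 ratios that share a control within each line.

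BMF lies on chromosome 15 (40087890 to 40108892, minus strand, GRCh38), and an antisense gene, BMF-AS1, overlaps its exons on the other strand. The library kit keeps no strand, so reads of the pair cannot be told apart. The 2 RefSeq start windows of BMF, 250 bases before to 50 after each start, are shown because BMF is the member lower in every knockdown library, with motif matches in capitals. The first window is chr15:40108830-40109129 and the second chr15:40106917-40107216, both on the minus strand of GRCh38.p14 and read 5′ to 3′. The motifs searched on both strands were the TEAD core GGAATG, the Snail-family E-box CAGGTG and the AP-1 site TGANTCA, where N is any base; no matches overlapped.
BMF, upstream start: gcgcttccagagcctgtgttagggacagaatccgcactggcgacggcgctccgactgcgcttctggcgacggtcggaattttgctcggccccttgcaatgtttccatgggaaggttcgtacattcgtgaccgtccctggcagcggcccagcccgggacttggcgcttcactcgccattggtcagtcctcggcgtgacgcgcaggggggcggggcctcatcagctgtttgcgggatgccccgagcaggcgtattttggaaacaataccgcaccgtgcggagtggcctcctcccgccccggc
BMF, downstream start: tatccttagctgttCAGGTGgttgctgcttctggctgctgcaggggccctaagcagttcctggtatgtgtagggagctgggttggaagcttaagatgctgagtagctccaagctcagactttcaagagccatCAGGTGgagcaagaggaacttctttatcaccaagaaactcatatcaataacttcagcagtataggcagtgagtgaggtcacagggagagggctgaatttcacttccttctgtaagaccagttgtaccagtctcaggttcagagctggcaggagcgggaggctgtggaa
The upstream window held none of these letters. The downstream window held CAGGTG at positions -236 and -118 relative to the start, marked in capitals. CAGGTG or its complement was in 20.6% of all 35116 RefSeq windows of this length, GGAATG in 14.0% and TGANTCA in 7.71%. In lung cancer cells, YAP and TEAD together with the Snail-family factor SLUG are known to hold BMF down. Whether any of them acts on BMF in these 2 lines was not tested. SNAI2, which encodes SLUG, had 105 and 63.3 normalized counts in the HCT116 knockdown libraries and 51.8 in the control, and 193 and 169 in the SW620 knockdown libraries and 91.8 in the control (limma log2 fold change over both lines 0.80 ± 0.35, unadjusted p = 0.0505, adjusted p = 0.935).

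**Figure D1:**
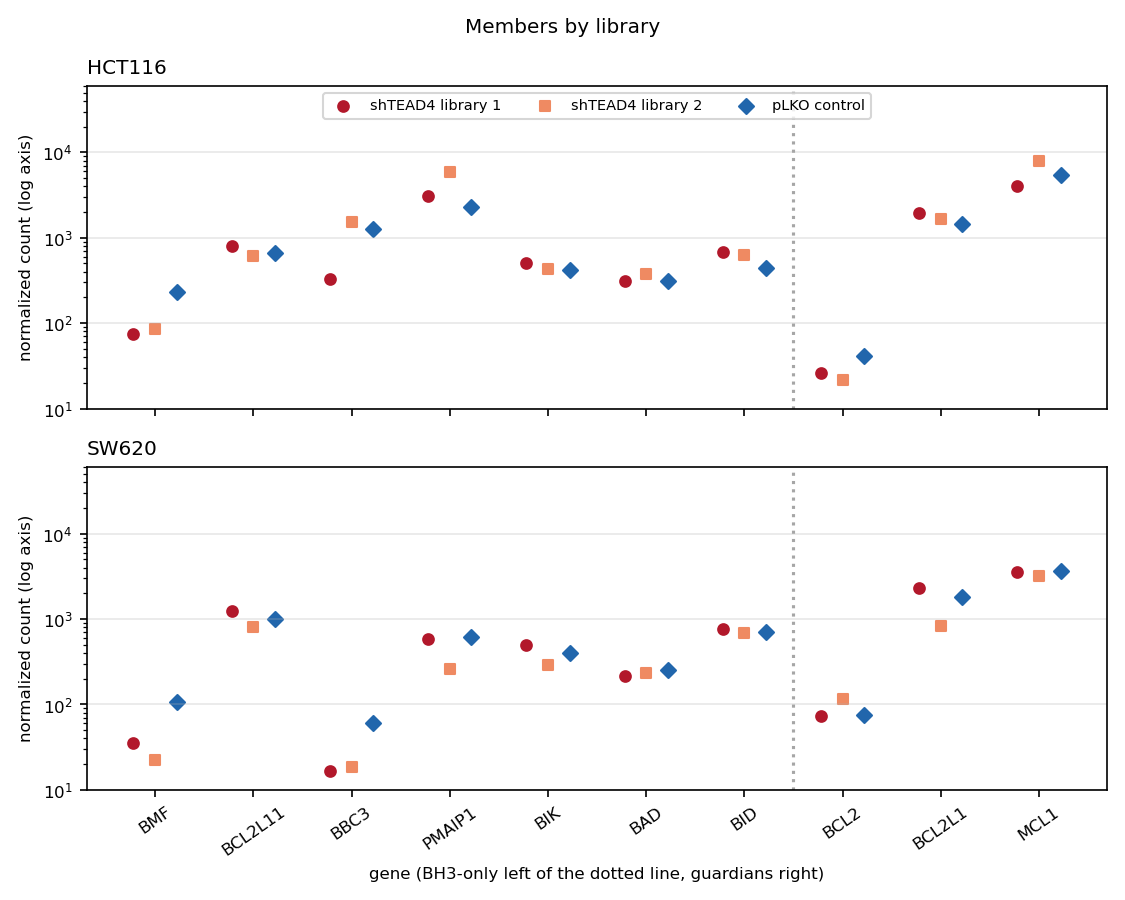
Normalized counts of the 10 members (log axis) in each library, with HCT116 above and SW620 below, shTEAD4 library 1 (circles), shTEAD4 library 2 (squares) and the pLKO control (diamonds). BMF lies at 75.5 and 84.7 in the HCT116 knockdown libraries below 229 in the control, and at 35.6 and 22.6 in SW620 below 108. Of the other members, BCL2L11, BIK and BAD lie between 71.9% and 126% of their controls, and the rest lie further from theirs in some libraries.

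BBC3 was low in 3 of the 4 knockdown libraries and not in the other. It encodes PUMA, a BH3-only protein that binds every guardian. In HCT116 it had 332 and 1532 normalized counts in knockdown libraries 1 and 2, against 1274 in the control. In SW620 it had 16.8 and 18.5 in the knockdown libraries, against 61.5 in the control. The HCT116 knockdown libraries thus lay on either side of their control, at 26.1% (95% counting interval 23.1% to 29.3%) and 120% (111% to 130%), while both SW620 ones were below theirs, at 27.3% (15.0% to 47.3%) and 30.01% (16.7% to 51.3%). The gap between the HCT116 knockdown libraries was 2.20 on the log2(normalized count + 1) scale, a size reached by 1.84% of the 12387 genes with a mean of at least 50, whose median gap was 0.46.

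The fit gave BBC3 a limma log2 fold change of -1.29 ± 0.58 over both lines (unadjusted p = 0.0555, adjusted p = 0.935). In HCT116 it was -0.83 ± 0.93 (limma, unadjusted p = 0.411), and 0.27 without HCT116 knockdown library 1 and -1.94 without library 2. In SW620 it was -1.75 ± 0.93 (limma, unadjusted p = 0.119, adjusted p = 1), on 17 and 18 reads against 63. The difference between the lines was 0.91 ± 1.32 (limma, unadjusted p = 0.519) and turned to -0.19 without HCT116 knockdown library 2. The genes most like BBC3 over the 4 ratios were PTPRH, a receptor tyrosine phosphatase (distance 0.20), PDK4, a kinase that inhibits pyruvate dehydrogenase (0.54), and CHAD, the cartilage matrix protein chondroadherin (0.67).

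The start window of BBC3 (chr19:47232618-47232917, minus strand, GRCh38.p14) is shown because it was the only 1 of 15 windows from 8 members that held the TEAD core. That core was in 14.0% of all RefSeq windows of this length, so 1 of 15 is no excess.
BBC3, start window: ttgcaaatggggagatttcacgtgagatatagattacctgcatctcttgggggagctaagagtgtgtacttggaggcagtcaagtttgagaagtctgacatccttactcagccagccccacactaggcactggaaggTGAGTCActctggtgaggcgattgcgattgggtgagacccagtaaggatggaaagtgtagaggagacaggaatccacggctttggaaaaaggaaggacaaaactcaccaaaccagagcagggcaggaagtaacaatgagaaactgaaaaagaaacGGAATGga
Capitals mark the AP-1 letters TGAGTCA at position -113 relative to the start and GGAATG at position 42. A match of letters is a description and not a binding site. The microRNA gene MIR3190, on the other strand of a BBC3 exon, was at 0 in all libraries.

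PMAIP1 was above the control in both HCT116 knockdown libraries and below it in both SW620 ones. It encodes NOXA, a BH3-only protein that binds MCL-1 and marks it for degradation. It had 3071 and 5899 normalized counts in the HCT116 knockdown libraries, against 2312 in the control. In SW620 it had 579 and 257 in the knockdown libraries, against 621 in the control. In each line one of the libraries lay much nearer to the control than the other, at 133% (95% counting interval 126% to 140.2%) and 255% (243% to 268%) in HCT116 and at 93.3% (83.2% to 105%) and 41.4% (35.7% to 48.0%) in SW620. The interval of SW620 knockdown library 1 thus includes 100%. PMAIP1 was the only member with this split between the lines, a pattern found in 6.71% of all genes tested, and 0 of 10 had the reverse split, found in 7.06%.

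The split of PMAIP1 did not pass the test. The limma log2 fold change was 0.88 ± 0.63 in HCT116 (unadjusted p = 0.221) and -0.68 ± 0.63 in SW620 (unadjusted p = 0.327), and 0.10 ± 0.46 over both lines (unadjusted p = 0.838, adjusted p = 0.983). Leaving out knockdown library 1 or 2 gave 1.35 or 0.41 in HCT116 and -1.27 or -0.10 in SW620. The difference between the lines was 1.56 ± 0.89 (limma, unadjusted p = 0.139, adjusted p = 1.0). The gap between the SW620 knockdown libraries was 1.17 log2 units, a size reached by 4.51% of genes against a median gap of 0.22.

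BID stood above the control in both HCT116 knockdown libraries and near it in SW620. BID is cut by caspase-8 and then carries a death receptor signal to the mitochondria. It had 679.7 and 621 normalized counts in the HCT116 knockdown libraries, against 437 in the control, and 775 and 693 in the SW620 knockdown libraries, against 715 in the control. Both knockdown values lay above the control in HCT116, as they did for 29.7% of all genes tested, and on either side of it in SW620. The limma log2 fold change was 0.57 ± 0.28 in HCT116 (unadjusted p = 0.0941, adjusted p = 0.828), 0.04 ± 0.28 in SW620 (unadjusted p = 0.901) and 0.30 ± 0.22 over both lines (unadjusted p = 0.205), and the difference between the lines was 0.53 ± 0.39 (unadjusted p = 0.230). The value over both lines was 0.04 without the HCT116 control and 0.57 without the SW620 control, which are the values of SW620 and HCT116 alone. The genes most like BID over the 4 ratios were CDC123, an assembly factor of the translation initiation factor eIF2 (distance 0.07), AGFG1 (0.08) and AMBRA1, an autophagy regulator (0.08).

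The remaining BH3-only genes, BCL2L11, BIK and BAD, lay between 71.9% and 126% of their controls. BCL2L11 encodes BIM, which binds all guardians and is induced when growth factor signalling stops. It had 806 and 618 normalized counts in the HCT116 knockdown libraries, against 655 in the control, and 1260.2 and 799 in the SW620 ones, against 1002. BIK, a BH3-only protein of the endoplasmic reticulum, had 502 and 432 in the HCT116 knockdown libraries, against 415, and 501 and 291 in the SW620 ones, against 405. BAD, which growth factor kinases inactivate by phosphorylation, had 312 and 376 in the HCT116 knockdown libraries, against 315, and 217 and 232 in the SW620 ones, against 255. In SW620 both BCL2L11 (126% and 79.7% of the control) and BIK (124% and 71.9%) were above the control in knockdown library 1 and below it in library 2, and in HCT116 knockdown library 1 they stood at 123% and 121%. The counting intervals of these 6 values did not include 100%. Over both lines their limma log2 fold changes were 0.06 ± 0.25 for BCL2L11 (unadjusted p = 0.831), 0.04 ± 0.28 for BIK (unadjusted p = 0.885) and -0.03 ± 0.24 for BAD (unadjusted p = 0.903). Reads of BAD cannot be told apart from those of GPR137, nor those of BCL2L11 from MIR4435-2HG, where their exons overlap on opposite strands.

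**Figure D2:**
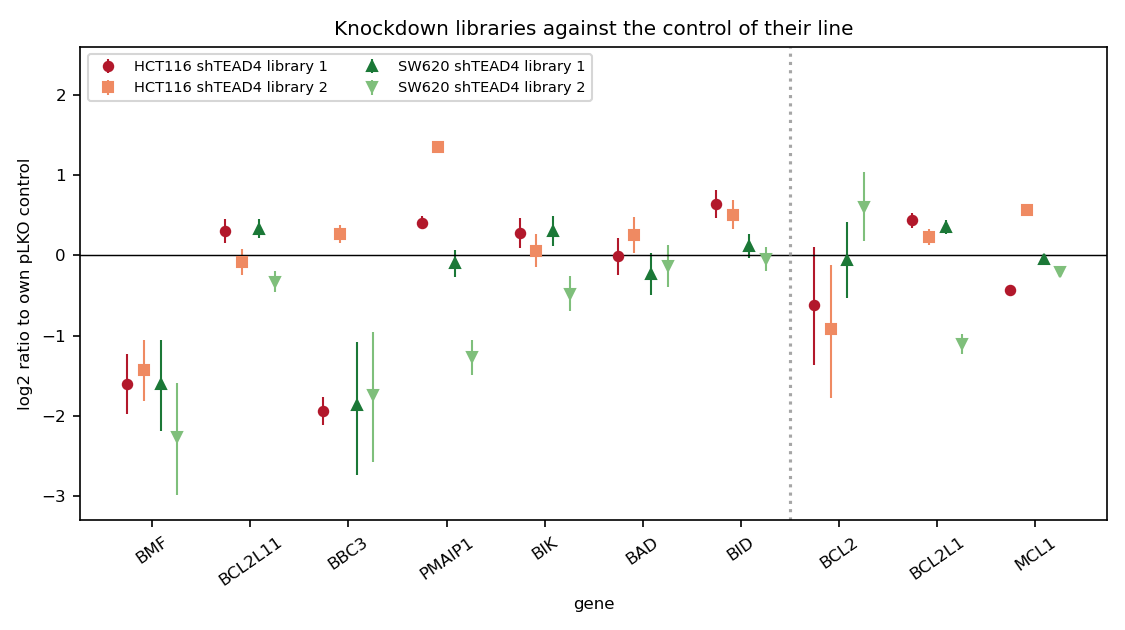
Log2 ratio of each knockdown library to the pLKO control of its own line, without a pseudocount, for the 10 members; bars are exact 95% counting intervals from the reads, which leave out the spread between cultures. BMF lies below 0 in all 4 libraries, BBC3 in 3 of them, and PMAIP1 above 0 in HCT116 and below 0 in SW620.

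The guardians showed no common direction. BCL2L1 encodes BCL-xL, and colon cancer cells with active beta-catenin are known to depend on it together with YAP1. It had 1940.0 and 1681 normalized counts in the HCT116 knockdown libraries, against 1433 in the control, and 2316 and 842 in the SW620 ones, against 1812. In SW620 the knockdown libraries stood at 128% and 46.5% of the control, and their gap of 1.46 log2 units was reached by 2.83% of genes. The limma log2 fold change was 0.33 ± 0.62 in HCT116 (unadjusted p = 0.613), -0.38 ± 0.62 in SW620 (unadjusted p = 0.570) and -0.02 ± 0.39 over both lines (unadjusted p = 0.957). The SW620 value was 0.35 without knockdown library 2 and -1.11 without library 1. The antisense gene ABALON, which overlaps BCL2L1 exons, was low in the same SW620 library, at 162 and 72.8 in the knockdown libraries and 164 in the control, while in HCT116 it had 327 and 140 in the knockdown libraries and 148 in the control, and its part in the result was not tested.

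MCL1 encodes MCL-1, a guardian with a short-lived protein that is set largely by its turnover. It had 4009 and 8019 normalized counts in the HCT116 knockdown libraries, against 5411 in the control, and 3598 and 3216 in the SW620 ones, against 3708. The HCT116 libraries lay on either side of the control, at 74.1% and 148%, and the SW620 ones just below it, at 97.0% and 86.7%. BCL2, the founding guardian, was low in both lines, with 26.4 and 21.4 in the HCT116 knockdown libraries, against 40.7, and 73.1 and 115.9 in the SW620 ones, against 76.2. Its HCT116 levels rest on 29 and 20 reads against 40. The counting interval of HCT116 knockdown library 1 (38.8% to 107% of the control) includes 100%, while that of library 2 (29.2% to 92.4%) does not. In SW620 the interval of knockdown library 1 (68.9% to 134%) includes 100%, while library 2 lay above the control, at 152% (113% to 206%). The limma log2 fold changes over both lines were -0.03 ± 0.28 for MCL1 (unadjusted p = 0.922) and -0.24 ± 0.44 for BCL2 (unadjusted p = 0.6). For BCL2 the limma value was -0.75 ± 0.58 in HCT116 (unadjusted p = 0.251) and 0.27 ± 0.58 in SW620 (unadjusted p = 0.659). The difference between the lines was -1.02 ± 0.82 (limma, unadjusted p = 0.267).

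Counted together over both lines, the members had a median near that of all genes, while the medians of the 2 lines lay on opposite sides of 0. In the fit of both lines 0 of 10 had a limma adjusted p under 0.05, beside 0% of the genes tested. An unadjusted limma p under 0.05 was reached by 1 of 10 (BMF), beside 4.43% of all genes: 1 lower, beside 2.71%, and 0 higher, beside 1.73%. The median log2 fold change was -0.02 for the 10 members, 0.04 for the BH3-only genes and -0.03 for the guardians, beside -0.01 for all 18743 genes. In HCT116 the count was again 1 of 10 (5.53% of genes), with 1 lower (2.66%) and 0 higher (2.87%), with a median of 0.11 beside 0.00 for all genes. In SW620 it was 1 of 10 (1.45%), with 1 lower (0.928%) and 0 higher (0.523%), with a median of -0.15 beside 0. For the difference between the lines 0 of 10 had an unadjusted limma p under 0.05 (2.26% of genes in either direction, 1.04% higher and 1.22% lower). The difference was positive for 9 of 10, beside 9736 of the 18743 genes tested, with a median of 0.35 beside 0.03 for all genes.

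Over all genes limma called 0 in any of the 4 comparisons, so a missed threshold does not show that a member kept its level. An unadjusted limma p under 0.05 was reached by 831 genes over both lines, 1036 in HCT116, 272 in SW620 and 423 for the difference. edgeR called 0 genes in each, and DESeq2 called 15, 19, 7 and 1 in the same order. Of the 10 members DESeq2 called 1, BMF, over both lines, beside 0.0947% of the genes it tested. It called 0 of 10 in HCT116 (0.156% of genes), in SW620 (0.0373%) and for the difference (0.00534%). In the authors' deposited table, BMF had log2 fold changes, shrunken towards 0, of -0.92 for HCT116 (p = 0.0332 by their test across all genes) and -0.42 for SW620 (p = 0.0176), and every member had an adjusted p of 1 in both lines in the authors' deposited table.

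**Figure D3:**
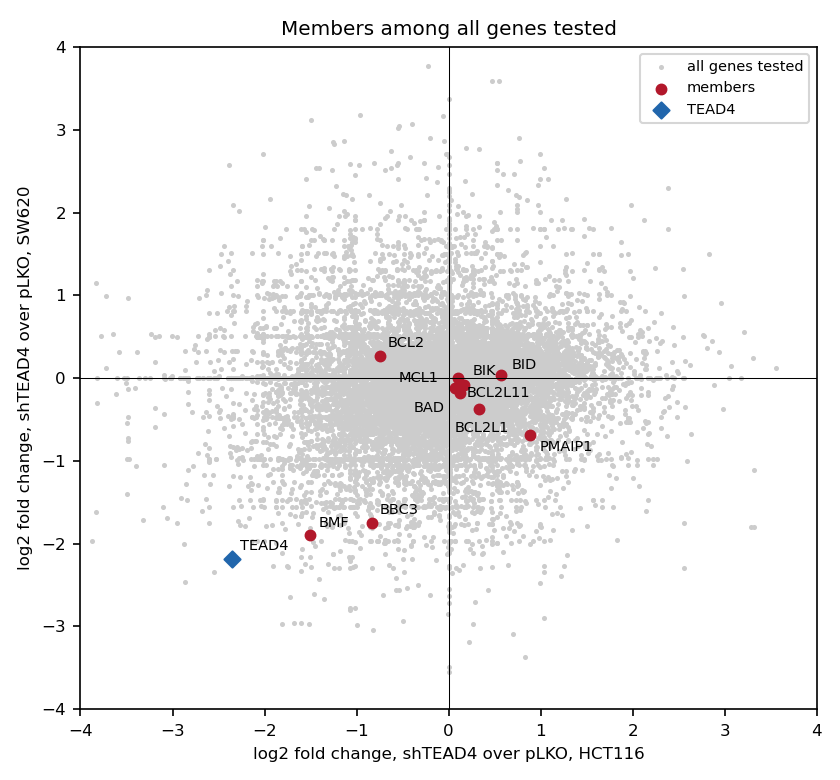
Limma log2 fold change of shTEAD4 over pLKO in HCT116 (x axis) and SW620 (y axis) for all genes tested (grey), the 10 members (red) and TEAD4 (blue diamond); 10 genes lie beyond 4 log2 units and are not drawn. BMF (-1.50 and -1.90) and BBC3 (-0.83 and -1.75) lie towards TEAD4, and the other members lie nearer to the origin.

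By library, SW620 knockdown library 2 stood apart among these genes. All 7 BH3-only genes were below the control there, with a median log2 ratio (of normalized count + 1) of -0.48. Of the 10 members 9 were below it, BCL2 being the exception, beside 8692 of the 18743 genes tested. In SW620 knockdown library 1, 4 of the 7 BH3-only genes were below the control (8827 of the 18743 genes), with a median of -0.10. In HCT116 knockdown libraries 1 and 2, 4 and 5 of the 7 were above the control (8880 and 9152 of the 18743 genes), with medians of 0.28 and 0.26. The median over all genes was 0 in each of these libraries. Both knockdown libraries of HCT116 were above the control for 4 of the 10 members (29.7% of all genes) and below it for 2 (31.4%), and those of SW620 were above it for 0 (31.1%) and below it for 5 (29.9%).

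Levels per kilobase show how the lines differ in these genes. Each line's table has its own normalization, so levels set across the lines are a description. Per kilobase of longest transcript, PMAIP1 took 52.6% and 60.3% of the summed BH3-only level in the HCT116 knockdown libraries and 40.4% in the control, and 18.8% and 12.2% in the SW620 knockdown libraries and 21.3% in the control. BBC3 took 6.03% and 16.6% in the HCT116 knockdown libraries and 23.6% in the control, and at most 2.23% in any SW620 library. BIK had the highest level per kilobase of longest transcript among the BH3-only genes in every SW620 library, with 526 and 306 in the knockdown libraries and 425 in the control. With the median transcript length BCL2L11 was the highest there, with 1427 and 905 in the knockdown libraries and 1134 in the control. BMF, the member lower in every knockdown library, was the lowest BH3-only gene per kilobase of longest transcript in all libraries. In HCT116 it stood at 16.1 and 18.1 in the knockdown libraries and 48.8 in the control. With the median length BBC3 was the lowest in SW620, at 10.2 and 11.2 in the knockdown libraries and 37.4 in the control. In the HCT116 control BID was then the lowest (233 against 352 for BMF), and BMF stayed the lowest in the HCT116 knockdown libraries.

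Among the guardians, MCL1 took 57.7% and 75.9% of the summed level per kilobase in the HCT116 knockdown libraries and 71.3% in the control, and 50.5% and 70.8% in the SW620 knockdown libraries and 57.2% in the control. BCL2 took at most 1.34% in any library. The ratio of summed BH3-only to summed guardian level came to 1.70 and 1.87 with HCT116 knockdown and 1.52 in the control, and 0.872 and 0.937 in the SW620 knockdown libraries and 0.910 in the control. This is a ratio of RNA levels per kilobase and no measure of protein. The order within a role depends on the length used: with the median transcript length BCL2L1 stood above MCL1 in the SW620 control, at 1983 against 1566 per kilobase, where the longest length gave 694 against 943.

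**Figure D4:**
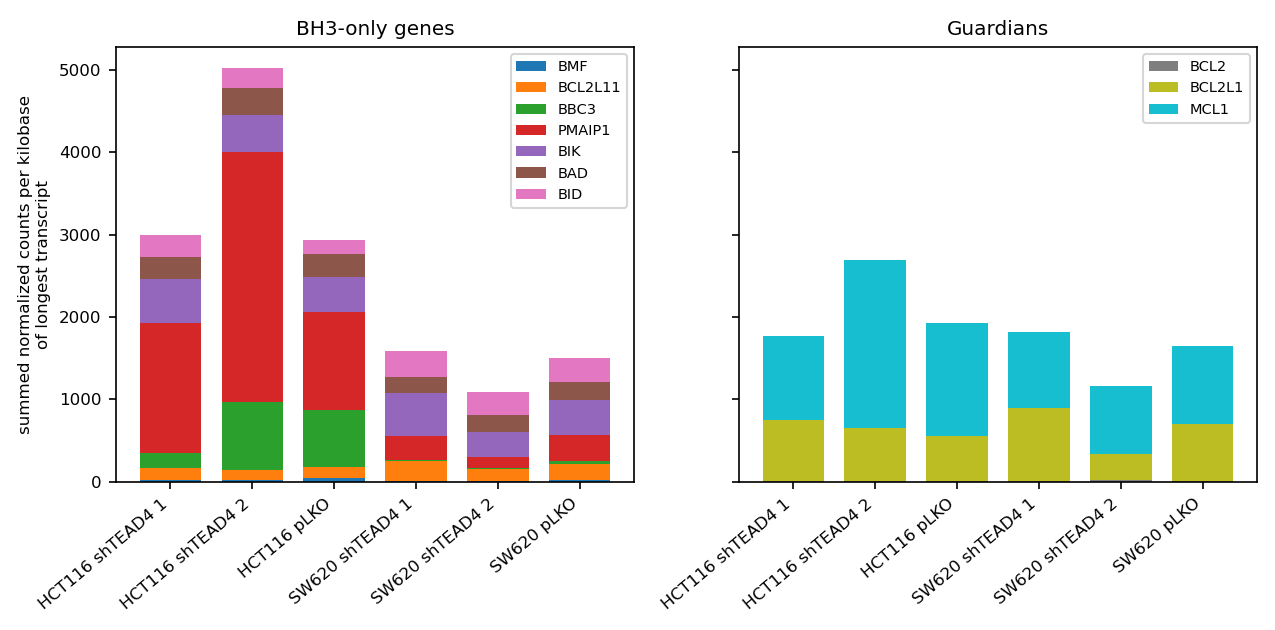
Summed normalized counts per kilobase of longest transcript in each library, stacked by gene, for the BH3-only genes (left panel) and the guardians (right panel). PMAIP1 fills the largest part of the BH3-only bar in HCT116 libraries (1576, 3028 and 1187 in knockdown libraries 1 and 2 and the control), and MCL1 and BCL2L1 make up nearly all of the guardian bar in every library.

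Further genes of the mitochondrial pathway were set beside the members. Of 15 further BCL2 family genes, 14 were tested, 0 had an unadjusted limma p under 0.05 in either direction over both lines, beside 4.43% of all genes, and their median log2 fold change was 0.00. The pore-forming effectors BAX and BAK1 are named for their role after their values were seen. BAX had 1115 and 1178 normalized counts in the HCT116 knockdown libraries and 1154 in the control, and 1136 and 1072 in the SW620 ones and 1104 in the control. BAK1 had 773 and 1287 in the HCT116 knockdown libraries and 893 in the control, and 696 and 457 in the SW620 ones and 633 in the control. BAX was thus close to its control in every library, and BAK1 lay on either side of it in each line. BNIP3L, a mitophagy receptor, had the smallest p of that list, with 1091 and 1515 in the HCT116 knockdown libraries and 1772 in the control, and 445 and 567 in the SW620 ones and 732 in the control (limma log2 fold change -0.50 ± 0.22, unadjusted p = 0.0557). BCL2A1 was at 0 in every library and was not tested. Of the 16 apoptosome, caspase and inhibitor genes, 0 had an unadjusted p under 0.05 over both lines, and the median was 0.01. In lists of this size, counts of 0 are near that share. BIRC5, which encodes survivin, a known YAP target, stood at 0.34 ± 0.21 (limma, unadjusted p = 0.149).

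A list of 8 mitochondrial genes held VDAC1, VDAC2, VDAC3, MTCH2, MFN1, MFN2, DNM1L and OPA1. It had 7 positive log2 fold changes over both lines, beside 9110 of the 18743 genes tested, and a median of 0.28, beside -0.01. An unadjusted p under 0.05 was reached by 0 of the 8, beside 4.43% of all genes. MTCH2, a receptor of truncated BID in the outer membrane, had 1605 and 2015 normalized counts in the HCT116 knockdown libraries and 1149 in the control, and 3716 and 2969 in the SW620 ones and 2732 in the control (limma log2 fold change 0.46 ± 0.21, unadjusted p = 0.0575). Of 15 regulators of the family, 2 had an unadjusted limma p under 0.05 over both lines, both higher, beside 1.73% of all genes. In HCT116 1 was higher (2.87% of genes) and 1 lower (2.66%). The regulators named here were among those with the smallest p. DYNLL2, the dynein light chain that holds BMF, had 3795 and 2719 normalized counts in the HCT116 knockdown libraries and 2160.3 in the control, and 3209 and 3087 in the SW620 ones and 2078 in the control (limma log2 fold change 0.59 ± 0.20, unadjusted p = 0.0195, adjusted p = 0.935). It was thus above the control in all 4 libraries, the opposite side from BMF. MAPK8, the kinase JNK1, which phosphorylates BMF and BIM, had 1411 and 2009 in the HCT116 knockdown libraries and 3111 in the control (limma log2 fold change in HCT116 -0.89 ± 0.32, unadjusted p = 0.0381, adjusted p = 0.828). In SW620 it had 1038 and 1144 in the knockdown libraries, against 1181 in the control.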

How the data were processed

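RNA of 6 libraries was prepared with the TruSeq RNA kit, per the labels' protocols; this kit keeps no strand. The deposited tables, 1 per line with 26364 features, hold the authors' normalized counts (a signal). Their values are reads over a size factor: multiplied back, 100% came out whole within a tolerance of 1e-06. The authors' log2 fold changes, the score of their test and its p-value stand beside them, per the file headers. Per the submitters' processing notes, Bowtie 0.12.2 and hg18 were used, in roles not stated. Which counter and gene models were used is not given in the sources used here. Of the features, 28 with date-like names were left out.

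Main tests used limma 3.58.1 (eBayes with trend, two-sided) on log2(normalized count + 1), which understates changes of low genes, for 18743 genes with a mean of at least 1, with Benjamini-Hochberg adjustment over all of them and a threshold of 0.05. The fit of both lines has terms for line and for knockdown, leaving 3 residual degrees of freedom. The effect in 1 line and the difference are contrasts of a 4-group model with 2 residual degrees of freedom, where the lone control is taken to vary as the knockdown libraries do. edgeR 4.0.16 and DESeq2 1.42.0 on the recovered reads were alternatives. The column numbers 1 and 2 of the knockdown libraries are used, as they could not be matched to the letters of the labels. Counting intervals are exact (Clopper-Pearson on the reads of 2 libraries). Transcript lengths and positions come from GENCODE on GRCh38 and start windows from RefSeq on GRCh38.p14, with 15 windows for 8 of the 10 members.

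Results on some list genes are not reported here. The members and lists were chosen with earlier results of these data known. Named genes are all members, TEAD4, list genes with the smallest p (up to 3 over both lines and 2 per line), and the 3 genes nearest to each of the 3 members with the smallest p.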

Additional observations from a re-analysis of the deposited data

Results flagged for a closer look

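PMAIP1 was singled out because both HCT116 knockdown libraries lay above their control and both SW620 ones below it. Its log2 fold change differed between HCT116 and SW620 by 1.56 ± 0.89 (SE, limma interaction contrast, unadjusted p = 0.139), so the difference was tested and did not pass. The range over the alternatives was 0.98 to 2.15, with the limits reached by leaving out 1 knockdown library.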

How the results depend on the processing

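The count of genes called was 0 with limma in each comparison and stayed 0 with other pseudocounts, a stricter filter, median centring, edgeR, fits of 1 line alone and each library left out. With no filter on low values it was 29 over both lines, 675 in HCT116, 305 in SW620 and 809 for the difference, of which 27, 595, 278 and 745 had a mean under 1 normalized count. DESeq2 called 15, 19, 7 and 1, and, with each library left out in turn over both lines (chosen after seeing the data), 55 and 33 without HCT116 knockdown libraries 1 and 2, 5 without the HCT116 control, 11 and 8 without SW620 knockdown libraries 1 and 2, and 21 without the SW620 control. DESeq2 and edgeR turned the sign over both lines of BCL2L1 (0.0489 and 0.0533) and MCL1 (6.0e-05 and 2.8e-04). Leaving out each library in turn gave ranges that cross 0 over both lines for BCL2L11 (-0.0782 to 0.20), PMAIP1 (-0.68 to 0.88), BIK (-0.11 to 0.23), BAD (-0.18 to 0.12), BCL2 (-0.75 to 0.27), BCL2L1 (-0.38 to 0.34) and MCL1 (-0.26 to 0.17). They also cross 0 for BBC3 in HCT116 (-1.94 to 0.27) and between the lines (-0.19 to 2.01), and in SW620 for BID (-0.0440 to 0.12) and BCL2L1 (-1.11 to 0.35). BMF kept its sign in all of them. Over both lines (-1.90 to -1.50) leaving out 1 library could not turn the sign, as all 4 knockdown libraries lay below their control. The limits of that range are the values of SW620 and HCT116 alone, reached without the control of the other line. The median in place of the longest transcript length moved 16 of 20 levels per kilobase by more than the spread of the libraries. No paired analysis was possible because each line has 1 control library and the deposited columns carry the numbers 1 and 2, not the letters of the labels. Without the control of a line, that line's own comparison and the difference could not be fitted. Counts under about 100 reads limit what could be detected. They were found for BMF in every knockdown library, for BBC3 in every SW620 library and for BCL2 in all libraries but SW620 knockdown library 2.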

Other observations

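Genes of the death receptor branch, which feeds into BID, were mostly above the control in HCT116 and below it in SW620. Of 11 genes, 10 had a positive log2 fold change in HCT116 (median 0.47) and 1 in SW620 (median -0.11), beside 8962 and 8882 positive of 18743 genes tested, with medians of 0.00 and 0. In HCT116 1 of the 11 had an unadjusted limma p under 0.05, beside 5.53% of all genes, which is near that share for a list of this size. CASP8, the protease that cuts BID, had 601 and 213 normalized counts in the HCT116 knockdown libraries and 93.5 in the control, and 502 and 373 in the SW620 ones and 452 in the control (limma log2 fold change in HCT116 1.93 ± 0.67, unadjusted p = 0.0352, adjusted p = 0.828). FAS, a death receptor, had 301 and 137 in the HCT116 knockdown libraries and 92.5 in the control, and RIPK1, a kinase of the receptor complex, had 768 and 172 there and 142 in the control. In each of these 3 genes HCT116 knockdown library 1 stood well above library 2.

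BIRC3, an inhibitor of apoptosis protein of the NF-kB response, had 209 and 835 normalized counts in the HCT116 knockdown libraries and 1328 in the control (limma log2 fold change -1.66 ± 0.87, unadjusted p = 0.112), and 123 and 82.0 in the SW620 ones and 108 in the control. BOK, a BAX-like gene, had 874 and 369 in the HCT116 knockdown libraries and 282 in the control, and 73.1 and 103 in the SW620 ones and 144 in the control. None of these genes passed adjustment over all genes.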
